A study of Mus musculus with 6 samples.

Results

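The miR-23, miR-24 and miR-27 genes lie in 2 small clusters of the mouse genome, and their counts were examined in exosomes released by HN9.10e cells with and without ceramide (Cer). The members were chosen by gene name as Mir23a, Mir23b, Mir24-1, Mir24-2, Mir27a, Mir27b and Mir3074-1. Of these 7 genes, 6 had a row among the 1973 rows of the count table, and Mir24-1 was the 1 member without a row. HN9.10e is an immortalized line of mouse embryonic hippocampal neurons, labelled wild type and grown in medium with 10% fetal bovine serum. Exosomes were collected from the culture medium of both groups after 48 h, from untreated cells (control, 3 libraries) and from cells given 100 nM ceramide (Cer-treated, 3 libraries). The ceramide that the study's methods list is C6-Cer, a cell-permeable short-chain form. All cells were of 1 line, and the labels name no vehicle for the control. The total count per library ranged from 800810 to 2760015, and 418 rows with sufficient counts were tested, the 6 member rows among them. The library names carry a lane number and a sample sheet position. Replicate 1 of both groups has lane number 1, the other control libraries have lane number 4 and the other Cer-treated libraries lane number 2. Since replicate 1 of both groups holds sheet position 1, the shared lane number does not show a shared run, and sequencing run or lane and treatment cannot be told apart in any replicate.

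miRNAs of a cluster are made from 1 long primary transcript, which the enzymes Drosha and Dicer cut first into hairpins and then into mature strands, named 5p and 3p after the arm of the hairpin they come from. A mature strand loaded into an Argonaute protein represses mRNAs that pair with its seed, bases 2 to 8 from the 5′ end. The clusters are paralogs, each with a miR-23, a miR-27 and a miR-24 gene, and are known from blood vessels, muscle, fat and glia as well as from neurons. In neurons miR-23 and miR-27 are known to repress Apaf1, an activator of caspases, and miR-27 represses genes of lipid metabolism such as Pparg. miR-24 is known for repressing genes of the cell cycle and of cell death.

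The mature strands are shown because they define which rows can share reads and targets. The sequences were taken from RefSeq (GRCm38.p6), in which the hairpins of 7 of the 7 members were found, and they are written 5′ to 3′ with the seed in capitals.
miR-23a-3p: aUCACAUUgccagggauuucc
miR-27a-3p: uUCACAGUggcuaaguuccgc
miR-27b-3p: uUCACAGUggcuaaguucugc
miR-24-3p: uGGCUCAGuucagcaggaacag
miR-24-1-5p: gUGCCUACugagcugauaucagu
miR-24-2-5p: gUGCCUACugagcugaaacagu
miR-3074-5p: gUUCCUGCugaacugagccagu
The 3p strand of Mir23b is miR-23b-3p. The strands miR-27a-3p and miR-27b-3p had the seed UCACAGU in common, and among 1679 mature names in the RefSeq table these were the only 2 with it. They differed at 1 of 21 bases, C19U, with the base of miR-27a-3p first and positions counted from the 5′ end. The seed of miR-24-3p, GGCUCAG, was found in 5 names, and the rows of the 4 others (Mir5124b, Mir6369, Mir6410 and Mir6413) held 0 counts in every library. The 5p strands of Mir24-1 and Mir24-2 shared the seed UGCCUAC and no other name had it.

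The chromosome 8 cluster held Mir23a (84208518 to 84208592), Mir27a (84208672 to 84208758) and Mir24-2 (84208815 to 84208921) on the plus strand of GRCm38, within 404 bases. Mir23a and Mir27a overlapped no other annotated gene. Mir24-2 shared 2 bases with an exon of the lincRNA Gm26532 and 83 bases with Mir3074-2 on the minus strand, which has no row in the table. The chromosome 13 cluster spanned 800 bases, with Mir23b (63300484 to 63300557), Mir27b (63300712 to 63300784) and Mir24-1 (63301208 to 63301275) on the plus strand. Mir3074-1 (63301199 to 63301283) lay there on the minus strand and covered the 68 bases of Mir24-1. The plus-strand host gene of this cluster was the protein-coding gene 2010111I01Rik, of which Mir23b was intronic, whereas Mir27b, Mir24-1 and Mir3074-1 fell within an exon of 1 of its transcripts. All 4 also lay in an intron of Fancc, a minus-strand gene for a DNA repair protein.

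**Figure D1:**
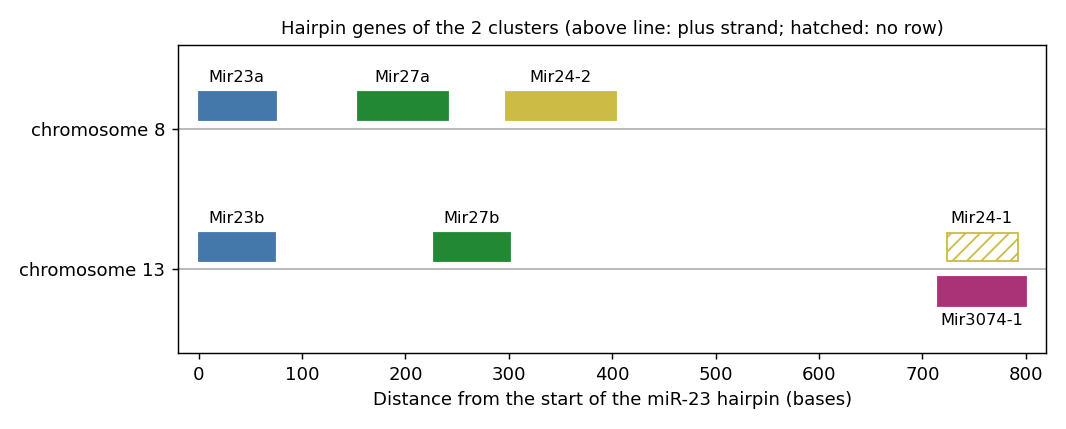
Map of both clusters, with the distance in bases from the first base of each cluster on the horizontal axis and the hairpins drawn by strand. Mir3074-1 lies on the minus strand over Mir24-1, which has no row in the count table, in a cluster of 800 bases, whereas the chromosome 8 cluster spans 404 bases.

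The Mir24-2 and Mir3074-1 rows were read together because their sequences cannot be told apart over a long stretch. Mir24-2 and the reverse complement of Mir3074-1 shared a run of 30 bases, shown here with miR-24-3p in capitals.
shared run: cacUGGCUCAGUUCAGCAGGAACAGgaguc
The mature strands miR-24-3p and miR-3074-5p were complementary over 20 of 22 bases, the former read from the plus strand and the latter from the minus strand. The study's methods name STAR's GeneCounts option for the counting. Whether the counting used strand, and how reads matching several places were handled, is not given in the sources used here. Both rows are therefore uncertain, and reads of miR-24 from Mir24-1 and reads of miR-3074 cannot be told apart in the Mir3074-1 row. Mir23a and Mir23b shared at most 20 bases in a row, as did Mir27a and Mir27b. The run of the miR-23 pair holds the start of miR-23a-3p. That of the miR-27 pair holds the start of miR-27a-3p and miR-27b-3p. Reads shortened at the 3′ end can therefore match both rows of a pair. Each row counts a hairpin, so 5p and 3p strands are not separated.

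Every member row was abundant in the exosomes and was lower on average in Cer-treated than in control exosomes. None reached the study's threshold for a change. Mir24-1 has no row, so its level is unknown. Levels are given in CPM, the count of a row scaled to a common library size, with library sizes adjusted by the TMM method. The 6 rows held between 2202 and 33365 counts in a library. A row was called changed where edgeR's quasi-likelihood test gave a p of 0.05 or less after Benjamini-Hochberg adjustment and the log2 fold change was 0.6 or more in either direction. This rule called 48 of the 418 rows (11.5%), 13 higher and 35 lower. Of the 6 member rows 0 were called, and 1, Mir23a, had an adjusted p of at most 0.05, against 19.9% of all rows tested in either direction and 12.7% lower in Cer-treated exosomes. All 6 had a log2 fold change below 0, against 50.7% of all rows. The median log2 fold change was -0.27 over the members and -0.01 over all rows. The 6 rows are not independent of one another, since Mir24-2 and Mir3074-1 carry nearly the same counts. CPM is a level relative to the other rows of a library, so a lower CPM need not be a lower amount. Fewer vesicles that carry a miRNA and less of it per vesicle cannot be told apart either. The labels number the replicates without naming separate cultures, so the p-values measure the spread between these libraries.

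**Figure D2:**
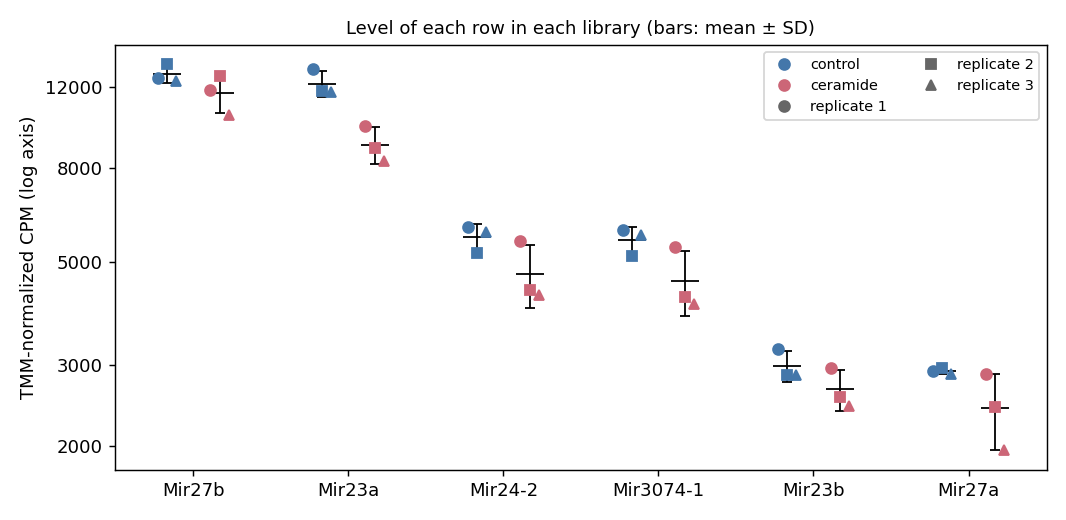
TMM-normalized CPM (log axis) of each member row in the 3 control and the 3 Cer-treated libraries, with 1 point a library and bars for the mean ± SD. Mir23a is the 1 row in which all Cer-treated libraries lie below all control libraries.

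Mir23a, the miR-23 gene of chromosome 8, had the largest difference of the 6. Its level was 13105, 11738 and 11713 CPM in control replicates 1, 2 and 3 and 9861, 8841 and 8269 CPM in Cer-treated replicates 1, 2 and 3. All 3 Cer-treated libraries were below all 3 control libraries, a separation seen in 1 of the 6 members and in 25.1% of all rows tested in this direction. The mean was 12185 ± 797 CPM in control and 8990 ± 807 CPM in Cer-treated exosomes (SD, n = 3 each), which was 73.8% of control. The log2 fold change was -0.44 (SE 0.0923, 95% interval -0.66 to -0.22, adjusted p = 0.0186 by the quasi-likelihood test of edgeR), short of the fold threshold of 0.6. In order of mean level it went from rank 19 of all rows tested in control to rank 24 in Cer-treated exosomes. The adjusted p rose above 0.05 without control replicate 1 (0.0818), without control replicate 2 (0.0523) and without ceramide replicate 2 (0.0975), whereas the log2 fold change stayed between -0.53 and -0.38 when any 1 library was left out.

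Mir23b, its paralog on chromosome 13, was about 4 times less abundant. It measured 3246, 2855 and 2852 CPM in control replicates 1, 2 and 3 and 2959, 2558 and 2442 CPM in Cer-treated replicates 1, 2 and 3. The groups overlapped, since Cer-treated replicate 1 exceeded 2 of the control libraries. The mean was 2984 ± 227 CPM in control and 2653 ± 271 CPM in Cer-treated exosomes (SD, n = 3 each). Mir23b thus had a log2 fold change of -0.17 (SE 0.104, 95% interval -0.42 to 0.08, adjusted p = 0.278 by edgeR's quasi-likelihood test). It ranged from -0.27 without ceramide replicate 1 to -0.11 without control replicate 1 when 1 library was left out.

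Mir27b, the miR-27 gene of chromosome 13, was the most abundant member in mean level and showed the smallest difference. It measured 12539, 13448 and 12370 CPM in control replicates 1, 2 and 3 and 11803, 12637 and 10429 CPM in Cer-treated replicates 1, 2 and 3. The groups overlapped, with Cer-treated replicate 2 above 2 of the control libraries. The mean was 12786 ± 580 CPM in control and 11623 ± 1115 CPM in Cer-treated exosomes (SD, n = 3 each). Mir27b thus had a log2 fold change of -0.14 (SE 0.0902, 95% interval -0.35 to 0.08, adjusted p = 0.299 by edgeR's quasi-likelihood test). When 1 library was left out, it was between -0.21 (without ceramide replicate 2) and -0.06 (without ceramide replicate 3), and it was -0.08 without control replicate 2. It ranked 17 of all rows in control and 18 in Cer-treated exosomes.

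Mir27a, on chromosome 8, varied little among control libraries and more among Cer-treated ones. It measured 2916, 2960 and 2859 CPM in control replicates 1, 2 and 3 and 2861, 2431 and 1958 CPM in Cer-treated replicates 1, 2 and 3. Cer-treated replicate 1 lay within the control range and the other Cer-treated libraries lay below it. The mean was 2912 ± 50.6 CPM in control and 2417 ± 452 CPM in Cer-treated exosomes (SD, n = 3 each), and the log2 fold change was -0.27 (SE 0.138, 95% interval -0.60 to 0.06, adjusted p = 0.205 by edgeR's quasi-likelihood test). Without ceramide replicate 1 it was -0.43, with an adjusted p of 0.0494 in the same test, and without ceramide replicate 3 it was -0.14, with an adjusted p of 0.419.

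Mir24-2, the miR-24 gene of chromosome 8, measured 5958, 5233 and 5830 CPM in control replicates 1, 2 and 3 and 5561, 4355 and 4244 CPM in Cer-treated replicates 1, 2 and 3. Mir3074-1, which covers Mir24-1 on the other strand, measured 5885, 5164 and 5720 CPM in the control libraries and 5394, 4213 and 4067 CPM in the Cer-treated libraries, in the same order. In both rows Cer-treated replicate 1 lay among the control libraries and the other Cer-treated libraries lay below all of them. The log2 fold change was -0.27 for Mir24-2 (SE 0.123, 95% interval -0.56 to 0.03, adjusted p = 0.168) and -0.30 for Mir3074-1 (SE 0.125, adjusted p = 0.136) by edgeR's quasi-likelihood test. The labels do not state that equal replicate numbers are pairs, and the pairing was inferred from these same data. With the replicate number as a block the adjusted p was 0.0325 for Mir24-2 and 0.0252 for Mir3074-1 in the same edgeR test. The log2 fold changes were then -0.28 and -0.30. With the block, 3 of the 6 members were lower at an adjusted p of at most 0.05, against 24.9% of all rows tested, and again 0 reached the fold threshold. Mir24-2 and Mir3074-1 are among these 3 and carry nearly the same counts, so they are not separate results. Without ceramide replicate 1 and with no block, the values were -0.42 (adjusted p = 0.0226) for Mir24-2 and -0.45 (adjusted p = 0.0195) for Mir3074-1 in the edgeR test. Without ceramide replicate 3 they were -0.19 (adjusted p = 0.350) and -0.22 (adjusted p = 0.286) in the edgeR test.

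**Figure D3:**
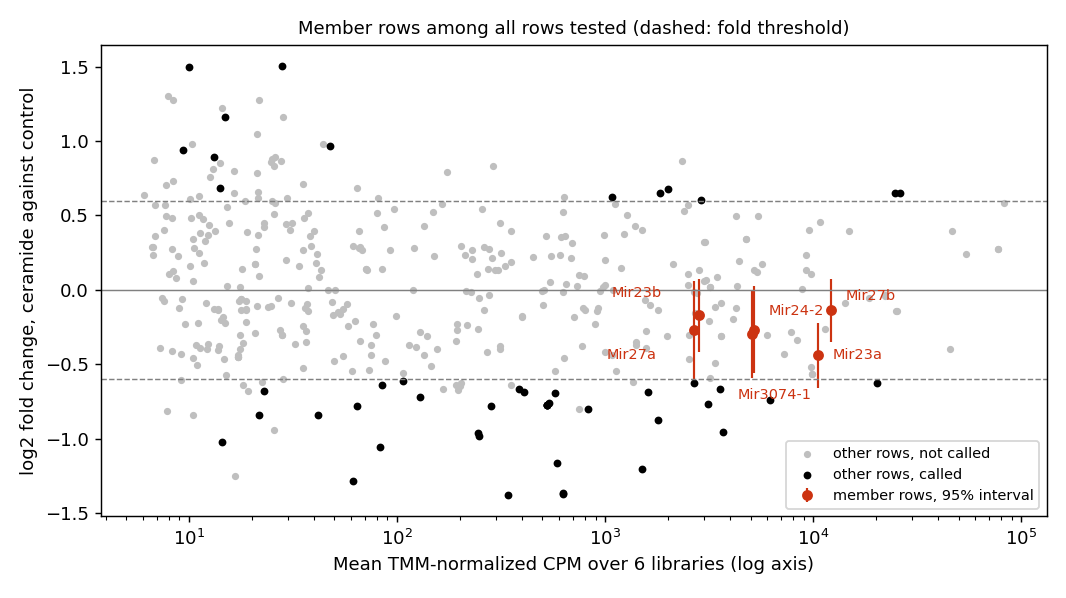
Log2 fold change of Cer-treated against control exosomes for the 418 rows tested, against mean CPM (log axis), with member rows in red with 95% intervals, called rows in black and the fold threshold of 0.6 dashed. The member rows lie in the upper range of abundance and between -0.44 and -0.14, inside the threshold.

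Compared within the same replicate number, all 6 members were lower in the Cer-treated library in 3 of 3 pairs, as were 37.3% of all rows tested. The log2 differences were -0.41, -0.41 and -0.50 for Mir23a in replicates 1, 2 and 3. They were -0.03, -0.28 and -0.55 for Mir27a, and -0.10, -0.27 and -0.46 for Mir24-2. Replicate 3 had the most negative difference in every member, and Mir23a was the member whose pairs differed least in proportion to their size. Replicate 1 is also the single pair with the same lane number, although its libraries may come from different runs. In this pair the differences ranged from -0.41 for Mir23a to -0.03 for Mir27a, with -0.13 for Mir23b, -0.09 for Mir27b and -0.13 for Mir3074-1 between these.

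**Figure D4:**
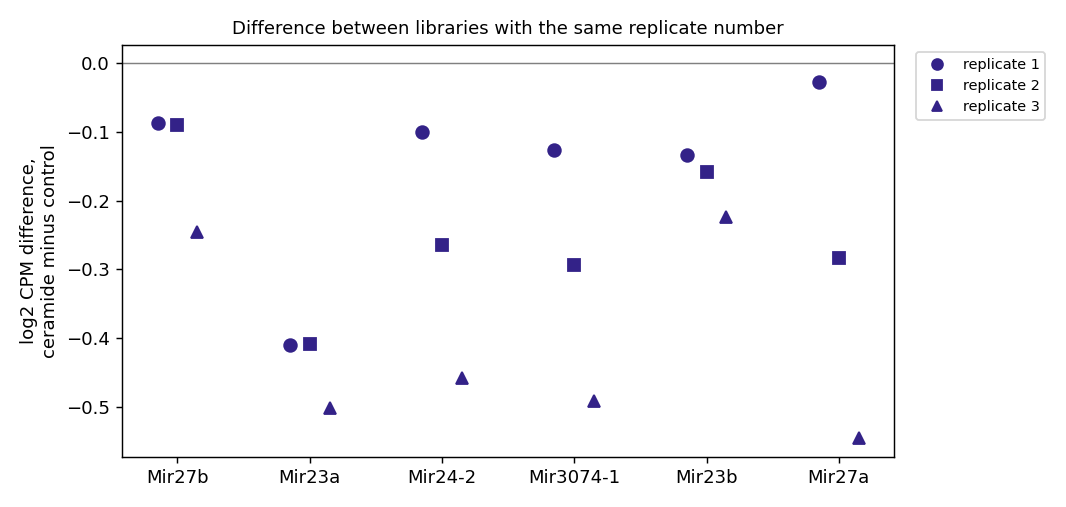
Log2 difference in CPM between the Cer-treated and the control library of the same replicate number, with 1 symbol a replicate. All 18 symbols lie below 0, and those of replicate 3 lie lowest in each member, at -0.55 for Mir27a.

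Within a library the ratio of paralogs does not depend on the scaling between libraries. It may depend on how shortened reads that match both rows were counted, which is not known. Mir23a held 4.04, 4.11 and 4.11 times the counts of Mir23b in control replicates 1, 2 and 3, and 3.33, 3.46 and 3.39 times in Cer-treated replicates 1, 2 and 3. The ratio was lower in all Cer-treated libraries than in all control libraries. On the log2 scale the ratio was 2.03 ± 0.0149 in control and 1.76 ± 0.0262 in Cer-treated exosomes (SD, n = 3 each), a difference of -0.27. The exact two-sided permutation test gave p = 0.1, the smallest that 3 libraries against 3 allow, and 0.15 after Benjamini-Hochberg adjustment over 3 ratios, so that this test cannot reach 0.05. The counting error of the log2 ratio in a single library was between 0.0199 and 0.0345. Mir27b held 4.30, 4.54 and 4.33 times the counts of Mir27a in control and 4.13, 5.20 and 5.32 times in Cer-treated replicates 1, 2 and 3. Here the groups overlapped, and the log2 ratio of Mir27a to Mir27b differed by -0.14 (exact permutation p = 0.4, adjusted 0.4). The ratio of a chromosome 8 gene to its chromosome 13 paralog was thus lower on average for both miR-23 and miR-27, and the groups separated for miR-23.

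**Figure D5:**
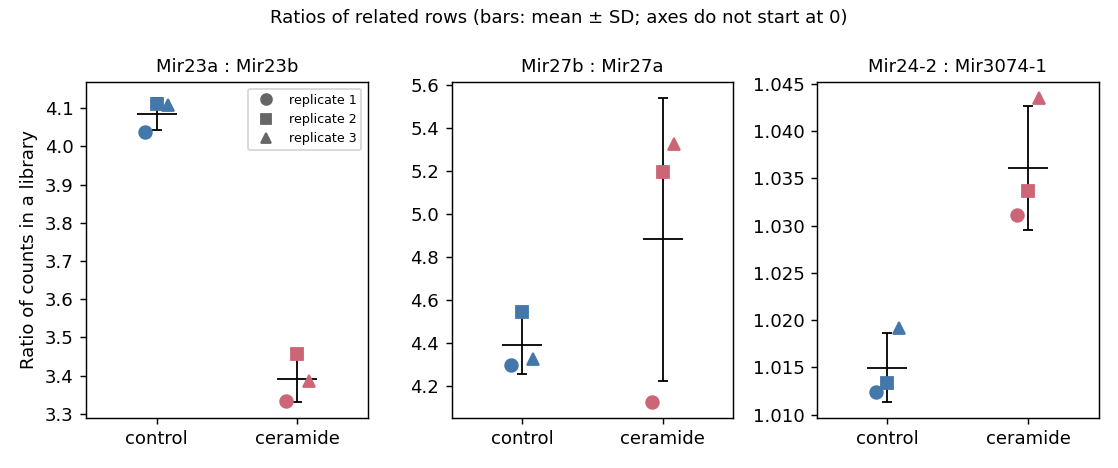
Ratios of the counts of paralogous rows in each library (vertical axes that do not start at 0), with 1 point a library and bars for the mean ± SD. The Mir23a to Mir23b ratio lies between 4.04 and 4.11 in control and between 3.33 and 3.46 in Cer-treated libraries.

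The Mir24-2 row held slightly more counts than the Mir3074-1 row in every library, and the gap was wider in Cer-treated exosomes. Mir3074-1 had 1.22%, 1.32% and 1.88% fewer counts than Mir24-2 in control replicates 1, 2 and 3 and 3.01%, 3.25% and 4.17% fewer in Cer-treated replicates 1, 2 and 3. As a difference in CPM the gap was 72.8, 69.0 and 110 in control and 168, 142 and 177 in Cer-treated libraries. All 3 Cer-treated gaps exceeded all 3 control gaps, with means of 83.9 ± 22.5 and 162 ± 18.4 CPM (SD, n = 3 each). The log2 ratio of Mir3074-1 to Mir24-2 differed by -0.03 between the groups, with an exact two-sided permutation p of 0.1, again the smallest possible, and 0.15 after adjustment. This ratio was chosen after the data were seen, in place of one with Mir24-1. Which reads make up the gap was not tested, since the rows do not separate the arms.

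Ratios within a cluster are given as values with no test. In control replicates 1, 2 and 3 the Mir23a to Mir27a ratio was 4.49, 3.97 and 4.10, and in the Cer-treated replicates it was 3.45, 3.64 and 4.22, so the groups overlapped. The Mir23b to Mir27b ratio was 0.259, 0.212 and 0.231 in control and 0.251, 0.202 and 0.234 in Cer-treated libraries. On chromosome 8 miR-23 thus exceeded miR-27, and on chromosome 13 miR-27 exceeded miR-23, in every library. Summed over Mir23a and Mir27a, chromosome 8 held 1.01, 0.902 and 0.957 times the counts of Mir23b and Mir27b of chromosome 13 in control and 0.862, 0.742 and 0.795 times in Cer-treated replicates 1, 2 and 3. The groups did not overlap in this sum. Mir23a held most of its chromosome 8 part, with 96001 counts over the 6 libraries against 24213 for Mir27a. The ratio of Mir27a to Mir27b alone overlapped between the groups, so the sum is not a result separate from Mir23a.

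The order of mean CPM was Mir27b, Mir23a, Mir24-2, Mir3074-1, Mir23b and Mir27a in both groups. Mir27b exceeded Mir23a in 2 of 3 control and 3 of 3 Cer-treated libraries, and in control their ranges overlapped. Mir24-2 exceeded Mir3074-1 in all libraries, by a factor of 1.01 to 1.04, with overlapping ranges. Mir23b exceeded Mir27a in 1 of 3 control and 3 of 3 Cer-treated libraries, again with overlapping ranges. The steps from Mir23a to Mir24-2 and from Mir3074-1 to Mir23b were larger than the spread in both groups. Per base of hairpin the level in control was 175 CPM for Mir27b and 162 CPM for Mir23a, and Mir3074-1 (65.8 CPM) stood above Mir24-2 (53.0 CPM), whose annotated hairpin is longer. That last order comes from the annotated lengths, since Mir24-2 held more counts in every library. Counts of mature strands need not scale with the hairpin length.

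The 6 rows together held 4.50%, 4.18% and 4.30% of all counts in control replicates 1, 2 and 3 and 3.69%, 3.35% and 3.14% in Cer-treated replicates 1, 2 and 3. The highest Cer-treated share was below the lowest control share. These shares are of the total count, without the TMM adjustment. With library size alone, the median log2 fold change of all rows tested was -0.09. In TMM-adjusted CPM, 1 of the 6 rows had all Cer-treated libraries below all control libraries. The means were 4.33% ± 0.161 and 3.39% ± 0.281 (SD, n = 3 each), and with the miR-24 sequence counted once they were 3.75% ± 0.124 and 2.95% ± 0.222.

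Across the 6 libraries, Mir24-2 and Mir3074-1 had the highest correlation of log2 CPM among the members (Pearson r = 0.999), and Mir24-2 and Mir27b had the lowest (0.459). Mir23a and Mir23b had r = 0.882, and Mir27a and Mir27b had r = 0.802. These are descriptions over 6 libraries that share the treatment difference and the lane numbers. Outside the members, the row most like Mir23a was Mir140 (r = 0.993), a miRNA known from cartilage, with a log2 fold change of -0.30 (adjusted p = 0.0437 by edgeR's quasi-likelihood test). The nearest row was Mir32 for Mir23b (r = 0.995), Mir130b for Mir27a (r = 0.982) and Mir218-1, a miRNA of motor neurons, for Mir27b (r = 0.918). Mir145a, a miRNA of smooth muscle, was nearest to both Mir24-2 (r = 0.983) and Mir3074-1 (r = 0.989). Their log2 fold changes lay between -0.39 for Mir32 and -0.09 for Mir218-1, with adjusted p from 0.118 to 0.461 by the edgeR test.

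miRNAs known from other cell types and from blood were read beside these values, because the clusters are also expressed in vessels, muscle and glia and the medium held serum. Their part in the members' differences was not tested. The summed levels of the lists are in CPM of the total count of a library, without the TMM adjustment used for the fold changes and member levels. Over all rows tested, 48 of 418 (11.5%) were called, 13 higher and 35 lower. The neuronal list had 14 rows, of which 0 were called higher and 3 lower (Mir128-2 at -0.78, Mir138-1 at -0.76 and Mir153 at -0.84 on the log2 scale). Its summed level was 22300 to 23000 CPM in control and 19300 to 25000 CPM in Cer-treated libraries, and its row with the most counts, Mir218-2, had a log2 fold change of 0.46 (adjusted p = 0.0946, edgeR). The range of the neuronal sum in Cer-treated libraries enclosed that in control. The median log2 fold change of the neuronal list was -0.32. Mir9-2 (0.14), Mir9-3 (0.14) and Mir137 (0.24) went the other way and were not called. Mir138-2, which was not called either, was at -0.21, and these rows were named after their values were seen. The endothelial list was the single row Mir126a, at 984 to 1070 CPM in control and 919 to 1040 CPM in Cer-treated libraries, with a log2 fold change of 0.03 (adjusted p = 0.825, edgeR). The blood, liver and serum list (6 rows) summed to 393 to 442 CPM in control and 348 to 413 CPM in Cer-treated libraries and had 0 called rows, and its most counted row, Mir486, was at -0.26 (adjusted p = 0.267, edgeR). The median log2 fold change of this list was 0.20, with Mir223 (0.58, adjusted p = 0.0553, edgeR), Mir122 (0.39, adjusted p = 0.0635) and Mir144 (0.39, adjusted p = 0.388) named after their values were seen. The remaining rows were Mir451a at 0.01 (adjusted p = 0.975, edgeR) and Mir150 at -0.37 (adjusted p = 0.282). The sums of both these lists overlapped between the groups. The muscle and heart list (8 rows, 5 tested) summed to 187 to 213 CPM in control and 175 to 207 CPM in Cer-treated libraries and had 0 called rows, with its most counted row, Mir1a-1, at 0.30 (adjusted p = 0.299, edgeR). Its median was -0.30, and Mir499 (-0.48, adjusted p = 0.0472, edgeR) and Mir133a-1 and Mir133a-2 (each -0.30, adjusted p = 0.282) were named after their values were seen. Mir206 went the other way, at 0.60 (adjusted p = 0.0535, edgeR), as did Mir1a-1. Mir133a-1 and Mir133a-2 held the same total of 251 counts. The glial and microglial list had 4 rows matched by name, 3 of them tested. Of these 1 was called lower, Mir338, a miRNA of oligodendrocytes, at -0.72 (adjusted p = 0.012, edgeR). The sum was 199 to 219 CPM in control and 128 to 166 CPM in Cer-treated libraries. Mir146a of this list has the row name Mir146 and was missed by the matching. It was also called lower, at -0.66 (adjusted p = 0.00498, edgeR), and its mean of 387 CPM over the 6 libraries exceeds this sum. Without Mir146, the glial sum was lower in all Cer-treated than in all control libraries, and Mir338 held the most counts in it. Mir219a-1 was at -0.12 (adjusted p = 0.671, edgeR). Mir219a-2 went the other way, at 0.61 (adjusted p = 0.127, edgeR), and both were named after their values were seen. Of the rows of these lists 0 were at 0 in every library, and each list other than the neuronal one summed to less than any single member row.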

How the data were processed

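Small RNA of exosomes was sequenced in 6 libraries (QIAseq kit). The authors trimmed reads with cutadapt (1.15), aligned them to GRCm38 with STAR (2.5.3a) and deposited raw counts per miRNA gene, with versions from the submitters' processing notes. For counting, the study's methods name STAR's GeneCounts option. The GENCODE release and the handling of strand, of reads matching several places and of molecular identifiers are not given in the sources used here. Whether reads or molecules were counted is therefore unknown. The separate rows Mir465c-1 and Mir465c-2 had the same mean level (9882 CPM) and log2 fold change (-0.56). Mir24-2 and Mir3074-1 held nearly the same counts. Whether reads were counted in more than 1 row was not tested. Groups and replicate numbers came from the labels. Names and coordinates came from GENCODE M21, which matched 1894 of 1973 rows.

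The counts were tested with edgeR (4.0.16, R 4.3.3) by its quasi-likelihood test, with TMM, filterByExpr, condition as the only term and Benjamini-Hochberg adjustment over 418 rows. Intervals are at 95%. The procedure was tested on simulated data. DESeq2 (1.42.0), limma-voom (limma 3.58.1), other scalings and filters, a lane term, a replicate block and leaving out each library were alternatives. Deviations from the group means correlated at 0.59, 0.43 and 0.75 for libraries with the same replicate number, and at -0.59 to 0.10 for different numbers. Within a group these deviations cancel, so positive correlations at the same number lower the others. The numbers were taken as pairing the libraries, which the labels do not state. Ratios were compared by exact permutation tests. Named rows were all members, the row outside them with the highest correlation of log2 CPM (prior count 2) with each, and, of each marker list, the called rows and the row with the most counts. Members, lists and tests were chosen with earlier results of these data known.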

Additional observations from a re-analysis of the deposited data

How the results depend on the processing

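The number of rows called between Cer-treated and control exosomes was 48, and it became 87 with the replicate block, 29 with sequencing lane as a further term, 83 with no fold threshold and 189 with the replicate block and no fold threshold. When each library was left out in turn it ranged from 28 (without control replicate 1) to 55 (without ceramide replicate 1). The split into higher and lower was 13 and 35, and it was 21 and 26 with DESeq2's size factors, 23 and 28 with upper quartile factors and 4 and 42 with library size alone. The median log2 fold change of all rows was -0.01, 0.07, 0.06 and -0.09 under these 4 scalings, and all 6 members were lower under each of them. Because the fold threshold of 0.6 was part of the call, Mir23a passed once it was dropped (-0.44). With the replicate block and no fold threshold, chosen after seeing the data, Mir23a (-0.44), Mir24-2 (-0.28) and Mir3074-1 (-0.30) passed. The block moved the adjusted p of Mir24-2 and Mir3074-1 to 0.05 or less and changed no other member's side of that threshold.

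No member row reached the fold threshold under any alternative run. Mir23a was lower in 16 of 16 alternatives and had an adjusted p of at most 0.05 in 11 of them (0.00116 to 0.101), not with upper quartile factors (0.0624) or with lane number as a term (0.101), nor when the first or second control library or the second Cer-treated library was left out. Mir23b and Mir27b passed 0.05 in 0 of 16. With lane number as a term the log2 fold changes of Mir27a and Mir24-2 were -0.03 and -0.10. The comparison then rests on the replicate 1 pair, whose libraries may come from different runs, so this is not a correction for run. Joining near-identical rows left Mir3074-1 without a value of its own. Leaving out each library in turn, the difference in log2 ratio ranged from -0.28 to -0.26 for Mir23a to Mir23b and from -0.26 to -0.08 for Mir27a to Mir27b. The planned ratio of Mir24-1 to Mir24-2 could not be computed, because Mir24-1 has no row. With 3 libraries a group, exact tests cannot go below 0.1, or 0.25 when paired. The counting error given for the log2 ratio of Mir23a to Mir23b leaves out the spread between libraries.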
